A study of Mus musculus with 4 samples.

Results

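The genes of the constitutive proteasome were followed in mouse mammary tumours with and without a Cdc25a transgene. The set holds 36 genes for the subunits of the core particle, of its regulatory cap and of the alternative activators, together with the chaperones that assemble the cap. A gene was taken where a probe outside the controls carried its symbol, which gave 39 probes for 30 of the 36 genes, among 32662 genes or transcripts measured in all. The interferon-inducible catalytic subunits Psmb8 and Psmb9 do not belong to the set and are given beside it. Psma1, Psmb4, Psmd1, Psmd2, Psmd6 and Psmd13 had no probe under their symbol.

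Tumours came from female FVB/N mice aged 26 weeks and were at stage T1, under 1 cm. Tumours with both transgenes, MMTV-cdc25a;MMTV-neu (Cdc25a;neu), were compared with tumours carrying MMTV-neu alone (neu), to find what Cdc25a adds to a tumour that neu drives. Every mouse therefore carried neu, the rodent form of the receptor tyrosine kinase Erbb2, and the mammary tumour virus (MMTV) promoter drove both transgenes, mainly in mammary epithelium. Each of 2 Cdc25a;neu tumours was hybridised with 1 neu tumour on 2-colour Agilent arrays, and each pair was repeated with the dyes swapped, so that 4 arrays stand for 2 mice per genotype. Ratios are log2 of Cdc25a;neu over neu, and the 4 values of a gene follow the order pair 1 with Cdc25a;neu in Cy5, pair 1 in Cy3, pair 2 in Cy5 and pair 2 in Cy3. In whole tumours, fewer cells of a type and less RNA per cell cannot be told apart.

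The proteasome destroys proteins that ubiquitin ligases have tagged. Its core is a barrel of alpha rings, which gate the entrance, and beta rings, which hold the cutting sites, and its cap holds an ATPase ring that unfolds substrates and non-ATPase subunits that bind ubiquitin and remove it. The subunits are made in fixed proportions, and their genes are known to be raised together by the transcription factor Nfe2l1 when proteasome activity falls. Dividing cells need the proteasome to clear cyclins and cyclin-dependent kinase inhibitors, and Cdc25a, a phosphatase that activates those kinases, is itself one of its substrates.

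The tumours gave signals of good strength for these genes. Spots well above background made up 78.5% to 92.2% of each array in green and 82.7% to 87.9% in red. All 30 proteasome genes were well above background in both genotypes on every array, with none saturated. Ratios over all genes correlated at 0.643 and 0.754 between the dye orientations of a pair, and at 0.196 to 0.364 between arrays of different pairs. The 10 epithelial markers had a log2 summed signal of 15.69 to 15.82 in the 4 tumours, and 9 of the 10 were well above background in both genotypes on all 4 arrays, while Krt19 was so on 3 in Cdc25a;neu. The 10 fat cell markers gave 11.29 and 11.73 in the Cdc25a;neu tumours against 12.86 and 14.22 in the neu tumours. Fabp4 contributed most to these sums. Of the 10, 8 were lower in Cdc25a;neu in both pairs, and 1, Cd36, was higher in both. The 10 macrophage markers gave 15.21 in the Cdc25a;neu tumour of pair 2 against 13.14 to 13.55 in the others. Lyz2 contributed most to that sum, with 14.99 in this tumour. Csf1r and C1qb were higher in both tumours of pair 1, and the other macrophage markers were highest in this tumour. The 9 muscle markers measured gave 12.13 in the neu tumour of pair 2 against 10.48 to 10.61. Des was not highest in that tumour, and the other muscle markers were. The 10 fibroblast markers gave 13.69 and 12.61 in the Cdc25a;neu and neu tumours of pair 2 against 11.62 and 11.94 in those of pair 1, and the 10 endothelial markers 10.97 to 11.75. Of the fibroblast markers, Dcn, Lum, Pdgfra and Fbln1 were lower in Cdc25a;neu in both pairs, and 0 were higher in both. Fbln1 gave less signal in pair 2 than in pair 1 in each genotype. Of the 67 markers measured over 7 cell types, 59 were well above background in both genotypes on all 4 arrays, and none was below it in both on every array. The part of cell mixture in the values that follow was not tested. The probe for Cdc25a did not show higher signal in the transgenic tumours. It averaged 0.05 ± 0.06 on the log2 ratio scale (SD over 2 pairs, limma adjusted p = 0.781). Whether it reads transcripts of the transgene was not tested. The probe for Erbb2 averaged 0.65 ± 0.28 (limma adjusted p = 0.489).

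The 4 promoter windows shown here are those of the catalytic subunits Psmb5 and Psmb6, which hold the core of the antioxidant response element, and of the chaperones Psmd5 and Psmd10, the lowest genes of the set with a promoter entry. The element is the sequence through which Nfe2l1 and its relative Nfe2l2 act together with small Maf proteins. Windows run from 250 bases before to 50 bases after the RefSeq gene start in GRCm38.p6, 5′ to 3′ on the gene's strand, with matches to TGACNNNGC in capitals. They lie at chr14:54617946-54618245 (minus strand) for Psmb5, chr11:70525107-70525406 (plus strand) for Psmb6, chr2:34870913-34871212 (minus strand) for Psmd5 and chrX:140956662-140956961 (minus strand) for Psmd10.
Psmb5: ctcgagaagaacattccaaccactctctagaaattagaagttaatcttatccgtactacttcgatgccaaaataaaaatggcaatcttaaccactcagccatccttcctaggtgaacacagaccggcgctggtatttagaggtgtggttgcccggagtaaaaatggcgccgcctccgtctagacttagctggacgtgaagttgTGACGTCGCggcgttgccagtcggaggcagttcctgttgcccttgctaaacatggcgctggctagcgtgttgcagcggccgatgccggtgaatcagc
Psmb6: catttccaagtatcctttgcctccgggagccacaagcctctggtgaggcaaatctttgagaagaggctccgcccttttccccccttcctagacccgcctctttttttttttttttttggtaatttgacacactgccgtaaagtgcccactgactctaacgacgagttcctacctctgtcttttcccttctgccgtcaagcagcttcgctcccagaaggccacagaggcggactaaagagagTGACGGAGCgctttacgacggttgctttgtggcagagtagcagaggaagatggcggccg
Psmd5: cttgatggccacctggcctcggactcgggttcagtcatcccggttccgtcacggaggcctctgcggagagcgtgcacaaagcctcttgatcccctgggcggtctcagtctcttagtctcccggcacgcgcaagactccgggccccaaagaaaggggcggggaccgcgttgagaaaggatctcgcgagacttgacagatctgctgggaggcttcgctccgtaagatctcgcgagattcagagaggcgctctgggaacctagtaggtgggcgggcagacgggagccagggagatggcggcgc
Psmd10: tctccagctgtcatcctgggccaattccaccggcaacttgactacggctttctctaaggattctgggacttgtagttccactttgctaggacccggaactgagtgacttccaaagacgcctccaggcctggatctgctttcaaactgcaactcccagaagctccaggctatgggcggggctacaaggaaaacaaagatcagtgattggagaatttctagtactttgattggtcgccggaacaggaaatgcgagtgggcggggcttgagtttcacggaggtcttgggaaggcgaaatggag
The match began 47 bases before the start of Psmb5 and 9 bases before that of Psmb6.

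RefSeq promoters were matched for 24 of the 30 measured genes, giving 26 windows, while Psmb1, Psmb2, Psmb7, Psmc3, Psmd3 and Psmd7 had no entry. TGACNNNGC, searched on both strands, was in 6 of 26 windows (23.1%), those of Psmb5, Psmb6, Psmc6, Psmd9, Psmd12 and Psme4, against 12.4% of 32851 windows of all genes. CCGGAAG, the core that ETS factors bind, was in 10 (38.5%) against 8.86% of all. CCAAT was in 11 (42.3%) against 37.4%, and the E-box CACGTG in 3 (11.5%) against 7.15%. Matches of different motifs were counted separately and may share bases, and the median GC content was 57.9% in these windows against 52.7% in all. The 6 genes with TGACNNNGC had a median log2 ratio of -0.07 between the genotypes, ranging from -0.18 to 0.13. The 18 genes with a window and no match had -0.04, ranging from -0.52 to 0.12, so that the ranges overlapped.

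Across the whole set, most proteasome genes had ratios near zero. Of 30 genes, 26 had a mean log2 ratio within 0.2 of zero (86.7%, against 85% of all genes). The median size of the mean ratio was 0.10, against 0.06 over all genes, and the means ran from -0.59 for Psmb2 to 0.13 for Psmc6. The median was -0.08, with -0.04 in pair 1 and -0.08 in pair 2, against 0.003 over all genes. With each array centred on its median in place of loess it was -0.035. Limma, fitted to the 2 pair ratios over all 32662 genes, called 0 genes (0%) at an adjusted p of 0.05, and 0 proteasome genes. At an unadjusted p of 0.05, limma placed 5 of 30 on the lower side, namely Psmb2, Psmc5, Psmd5, Psmd10 and Psmd11 (16.7%, against 5.75% of all genes), and 0 on the higher side, against 3.91%. The 95% interval of limma lay inside a 1.5-fold difference either way (0.58 on the log2 scale) for 26 genes, and reached past it for Psmb2, Psmd5, Psmd7 and Psmd9. That share was not taken over all genes, so it is not known whether 26 of 30 departs from genes in general. The half-widths of the intervals of the 30 genes ran from 0.15 to 0.52, with a median of 0.21.

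The lower side held more of the genes than the higher side. In both pairs 14 of 30 were lower (46.7%, against 28.1% of all genes) and 4 were higher (13.3%, against 31.9%), namely Psma2, Psmb3, Psmc2 and Psmc4. The other 12 went opposite ways in the pairs. On all 4 arrays 5 were lower (16.7%, against 12.4%), namely Psmb2, Psmc5, Psmd5, Psmd10 and Psme4, and 0 were higher, against 14.7%. The count of 14 was 9 with median centring, 9 without the Cy3 array of pair 2 and 19 without the Cy3 array of pair 1, and the count of 4 was 2 with median centring. Shares of all genes were not taken under these settings, so it is not known whether these counts depart from genes in general.

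**Figure D1:**
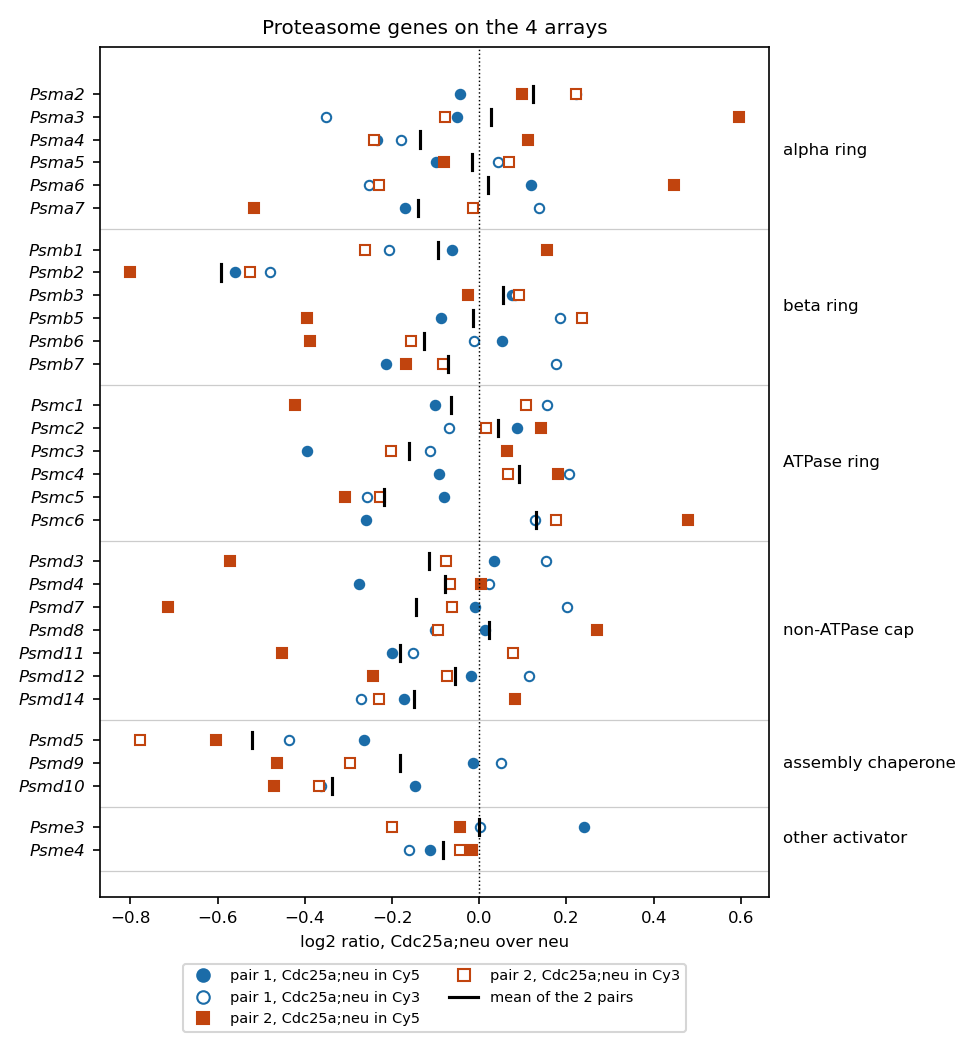
Log2 ratio of Cdc25a;neu over neu (horizontal axis) for each of the 30 measured proteasome genes (rows, by role) on the 4 arrays, with circles for pair 1, squares for pair 2, filled symbols for Cdc25a;neu in Cy5, open symbols for Cy3 and a black bar for the mean of both pairs. Psmb2, Psmd5 and Psmd10 have all 4 symbols left of zero, and most other genes straddle it.

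Dye orientation moved these genes more than it moved genes in general. The median size of the difference between the 2 arrays of a pair was 0.17 in pair 1 and 0.25 in pair 2, against 0.11 in both over all genes. Genes were not matched for signal strength in this comparison, and all genes include dimmer ones. The 2 orientations gave opposite signs for 16 of 30 genes in pair 1 (42.8% over all genes) and 13 of 30 in pair 2 (33.7% over all genes). Signals of 1 genotype also differed between the pairs by no less than the genotypes did within a pair. Within a genotype the normalised log2 signal of a proteasome gene differed between the pairs by a median of 0.17, against 0.13 between the genotypes within a pair, and the first was the larger for 17 of 30 genes. Pairs lay on different arrays, so that the first also holds differences between arrays and does not measure tumours alone.

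The alpha ring genes, whose products form the outer rings and the gate, had a median log2 ratio of 0.002 over 6 genes. Psma7 gave -0.17, 0.14, -0.52 and -0.01, with a mean of -0.14 ± 0.18 (SD, n = 2 pairs; limma adjusted p = 0.668). Psma4 gave -0.24, -0.18, 0.11 and -0.24, with a mean of -0.14 ± 0.10 (limma adjusted p = 0.591), and its second probe a mean of -0.10. Psma2 gave -0.04, 0.22, 0.10 and 0.22, with a mean of 0.12 ± 0.05 (limma adjusted p = 0.560). Each of the 3 had 1 array on the other side of zero from the rest. Psma3 was among the 2 genes whose pairs differed most. Its values were -0.05, -0.35, 0.60 and -0.08, so that pair 1 stood at -0.20 and pair 2 at 0.26, and 1 array, Cy5 of pair 2, set the second. Psma5 and Psma6 had means of -0.02 and 0.02. The probe for Psma1, listed under another name, had a mean of 0.16 and is not counted in the set.

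The beta ring contains the gene furthest from zero. Psmb2 encodes a beta ring subunit without a cutting site of its own. Its probe gave log2 ratios of -0.56, -0.48, -0.80 and -0.53, and the normalised log2 signal was 8.11 against 8.63 in pair 1 and 7.88 against 8.54 in pair 2. Both Cdc25a;neu tumours were thus below both neu tumours, with no overlap. The mean was -0.59 ± 0.10 (SD, n = 2 pairs), so that signal was lower (-33.7%), with a 95% interval from -0.80 to -0.38. It did not pass (limma adjusted p = 0.438), and 1.11% of all genes had a lower mean. With median centring the mean was -0.53 and the adjusted p of limma 0.0284. Over the 30 genes and the 15 alternatives that give a p, this was the 1 pass. Under that setting limma called 999 of all 32662 genes, with its total degrees of freedom estimated at 191 in place of 2.73. The pass therefore does not set Psmb2 apart from genes in general.

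The 3 catalytic subunits of the beta ring stayed near zero. Psmb5, which carries the chymotrypsin-like site, gave -0.09, 0.19, -0.39 and 0.24, with a mean of -0.02 ± 0.09 (limma adjusted p = 0.952) and an interval from -0.21 to 0.18. Psmb6, which carries the caspase-like site, gave 0.05, -0.01, -0.39 and -0.16, with a mean of -0.13 ± 0.21 (limma adjusted p = 0.722). Psmb7, which carries the trypsin-like site, gave -0.21, 0.18, -0.17 and -0.08, with a mean of -0.07 ± 0.08 (limma adjusted p = 0.718). None had 1 sign on all arrays, and none showed a difference beyond its spread. Of the remaining beta genes, Psmb1 had a mean of -0.09 and Psmb3 of 0.06. A probe for Psmb4 under another name had a mean of 0.05, and a second Psmb3 probe under another name -0.006.

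The inducible subunits that can replace these 3 in the core had unlike values in the pairs. Psmb8, the counterpart of Psmb5, gave 0.20, 0.05, -2.34 and -2.11, and Psmb9, the counterpart of Psmb6, gave 0.46, 0.37, -2.13 and -1.99. Both were far below zero on the arrays of pair 2 and above zero on those of pair 1, and neither passed (limma adjusted p = 0.688 and 0.756). Psmb10, the counterpart of Psmb7, gave -0.29, -0.24, -0.93 and -0.55 (limma adjusted p = 0.518). The log2 ratio of Psmb5 exceeded that of Psmb8 by 2.15 in pair 2 and was 0.08 below it in pair 1 (-0.08). For Psmb6 over Psmb9 the differences were 1.78 and -0.39, and for Psmb7 over Psmb10 0.61 and 0.25. The 3 constitutive genes thus had pair 2 values between -0.27 and -0.08, beside -2.23 to -0.74 for their counterparts. Of the 8 T and NK cell markers measured, 6 were lower in pair 2, with values from -0.49 to 0.09 and a median of -0.17, and 3 were lower in pair 1, with a median of 0.003. Their log2 summed signal, to which Cd3e contributed most, was 10.91 to 11.02 in the 4 tumours, and their part in the values of Psmb8 and Psmb9 was not tested.

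**Figure D2:**
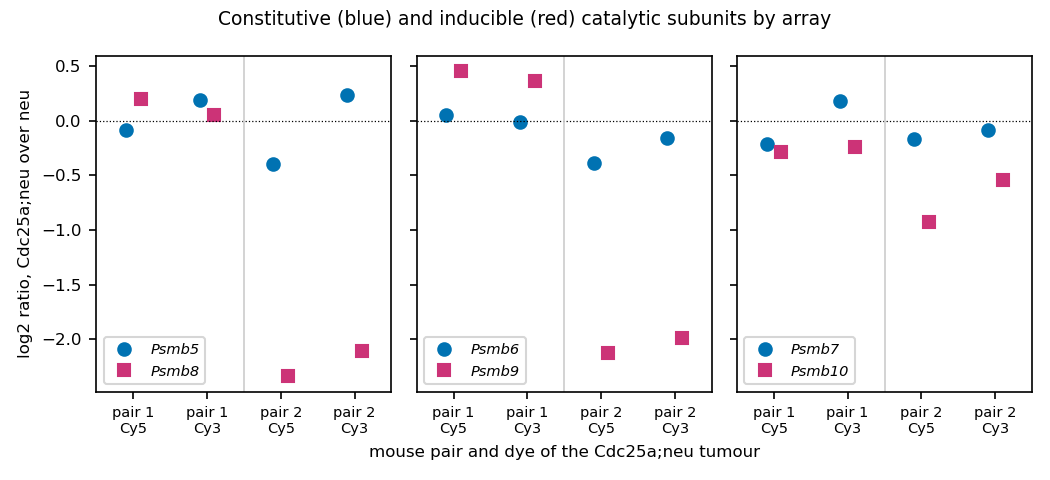
Log2 ratio of Cdc25a;neu over neu on each of the 4 arrays (horizontal axis, mouse pair and dye of the Cdc25a;neu tumour) for the 3 constitutive catalytic subunits (blue circles) and their inducible counterparts (red squares). Psmb8 and Psmb9 lie near -2 on both arrays of pair 2 while Psmb5, Psmb6 and Psmb7 stay between -0.39 and 0.24 on all 4 arrays.

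The ATPase ring, which unfolds substrates and opens the gate, had a median of -0.01 over 6 genes. Psmc5 gave -0.08, -0.26, -0.31 and -0.23, with a mean of -0.22 ± 0.07 (limma adjusted p = 0.500). All arrays were lower, its second probe had a mean of -0.17, and the spread of the pairs, -0.17 and -0.27, was smaller than the difference from zero. Psmc3 gave -0.40, -0.11, 0.06 and -0.20, with a mean of -0.16 ± 0.13 (limma adjusted p = 0.582). Psmc6 gave -0.26, 0.13, 0.48 and 0.18, with a mean of 0.13 ± 0.28 (limma adjusted p = 0.767), its pairs lying on opposite sides of zero. Psmc1, Psmc2 and Psmc4 had means of -0.07, 0.04 and 0.09. A probe for Psmc2 under another name gave 0.30 in pair 1 and -0.25 in pair 2, so that Psmc2 was higher in both pairs by 1 of its 2 probes, and one for Psmc4 had a mean of 0.08.

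The non-ATPase cap genes had a median of -0.12 over 7 genes, with 0 higher and 3 lower in both pairs. Psmd11, a scaffold of the cap, gave -0.20, -0.15, -0.45 and 0.08, with a mean of -0.18 ± 0.01 (limma adjusted p = 0.500). Arrays of pair 2 disagreed, and the mean was -0.05 without its Cy5 array and -0.31 without its Cy3 array. Psmd14, the enzyme that cuts ubiquitin from substrates, gave -0.17, -0.27, 0.08 and -0.23, with a mean of -0.15 ± 0.11 (limma adjusted p = 0.572), and a probe under another name had a mean of -0.22. Psmd7, the partner of Psmd14, gave -0.01, 0.20, -0.71 and -0.06, with a mean of -0.15 ± 0.34 (limma adjusted p = 0.782). Its pairs, 0.10 and -0.39, differed more than those of any other measured gene of the set, and its other 2 probes had means of 0.13 and -0.21, so its direction is not settled. Psmd12 likewise had probes that differed by pair. Its brightest probe gave 0.05 and -0.16 in pairs 1 and 2, while the other 2 gave 0.18 and -0.20, and -0.39 and 0.28. Psmd4, a ubiquitin receptor, had a mean of -0.08, Psmd3 of -0.12 and Psmd8 of 0.02. Probes under other names gave means of -0.03 and -0.10 for Psmd2, -0.003 for Psmd6 and -0.04 for Psmd13.

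Core and cap genes were at nearly the same level of difference. The 12 core genes had a median of -0.04 and the 13 cap genes -0.08, a gap of 0.04 (0.02 in each pair). On the 4 arrays the core median minus the cap median was 0.02, -0.005, -0.06 and -0.01. Arrays disagreed in the sign of that gap, and no direction holds for it. With means in place of medians it was -0.01, and with the chaperones counted to the cap 0.09.

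**Figure D3:**
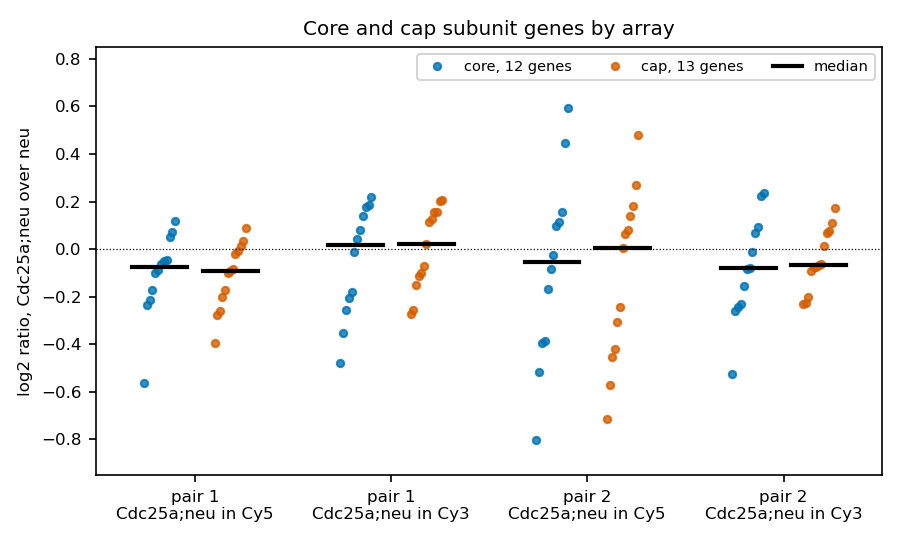
Log2 ratio of Cdc25a;neu over neu for each of the 12 core genes (blue) and 13 cap genes (orange) on the 4 arrays, with black bars at the medians. The medians of core and cap lie within 0.06 of each other on every array, and single genes spread most on the Cy5 array of pair 2.

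The chaperones of cap assembly had the lowest median of any role, -0.34 over 3 genes. They bind single ATPases while the base of the cap is built and are not part of the finished particle. Psmd5 gave -0.26, -0.44, -0.60 and -0.78, and its normalised log2 signal was 8.41 against 8.76 in pair 1 and 8.39 against 9.08 in pair 2. Both Cdc25a;neu tumours were below both neu tumours, with a mean of -0.52 ± 0.24 (SD, n = 2 pairs), or -30.3% in signal, and an interval from -0.90 to -0.14 (limma adjusted p = 0.495). Psmd10, also known as gankyrin and a binding partner of the retinoblastoma protein, gave -0.15, -0.36, -0.47 and -0.37, with signals of 8.42 against 8.67 and 8.25 against 8.67. Again the genotypes did not overlap, with a mean of -0.34 ± 0.12 (limma adjusted p = 0.488). Psmd9 gave -0.02, 0.05, -0.46 and -0.30, with a mean of -0.18 ± 0.28 (limma adjusted p = 0.698), and its other probe a mean of 0.04. Its direction thus rested on pair 2 and on 1 of its 2 probes.

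The alternative activators, which open the core without ubiquitin binding, were near zero. Psme3, found in the nucleus, gave 0.24, 0.001, -0.05 and -0.20, with a mean of -0.001 ± 0.17 (limma adjusted p = 0.998). Psme4, which acts in sperm cells and in DNA repair, gave -0.11, -0.16, -0.02 and -0.05, with a mean of -0.08 ± 0.08 (limma adjusted p = 0.680). Psme4 was lower on all arrays, by less than the median gap between dye orientations over the set (0.17 in pair 1 and 0.25 in pair 2). Its own gaps between orientations were 0.05 and 0.03.

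**Figure D4:**
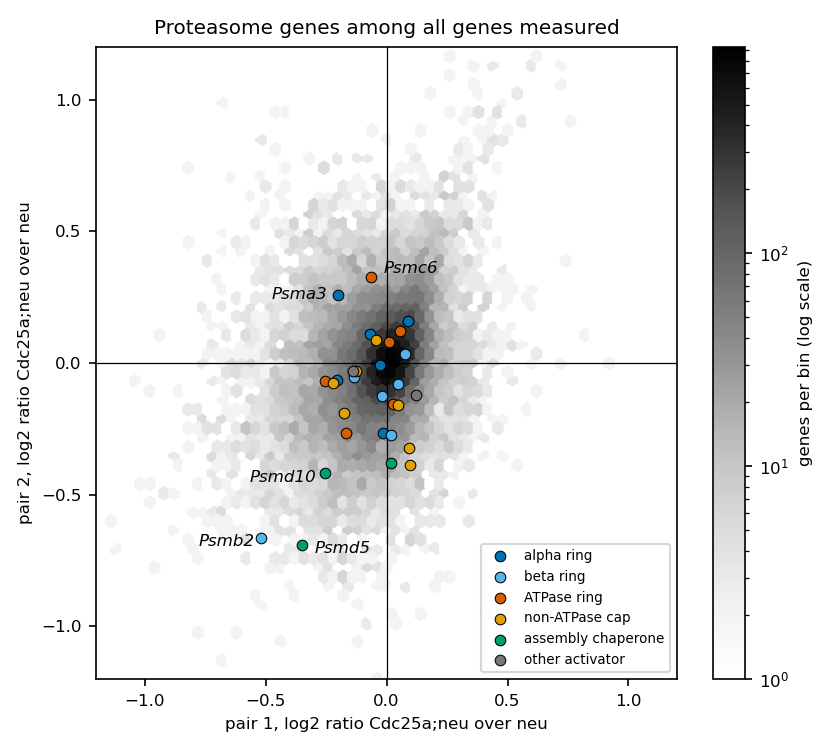
Log2 ratio of Cdc25a;neu over neu in pair 1 (horizontal) against pair 2 (vertical) for all measured genes (grey bins, log colour scale, 434 genes beyond 1.2 on either axis not drawn) and the 30 proteasome genes coloured by role. Psmb2 and Psmd5 lie at the edge of the cloud on the lower left, and most other proteasome genes lie within it.

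The genes were spread over 13 chromosomes in GRCm38.p6. Chromosomes 2 and 4 were singled out after the values were seen, so that the contrast with the rest follows from that choice and is not a test. Psma7, Psmb7, Psmc3, Psmd5 and Psmd14 on chromosome 2 and Psmb2 on chromosome 4 were lower in both pairs, 6 of 6, with a median of -0.16. Of the other 2196 measured genes on these chromosomes, 43.3% were lower in both pairs, with a median of -0.04. Of the 24 proteasome genes elsewhere, 8 were lower in both pairs (33.3%), against 28.8% of other genes there, and their median was -0.06. Neighbouring genes were read as the 10 nearest measured genes on each side. The 20 neighbours of Psmd5, from Angptl2 to Lhx6, had a median log2 ratio of -0.14, the lowest of the 30 neighbourhoods, and 9 of 20 were lower on all arrays, against 12.4% of all genes. The 20 neighbours of Psmb2, from Thrap3 to Gja4, had -0.09, with 8 of 20 lower on all arrays, and Psmb2 stood 0.51 below them. Around Psmd10 on chromosome X the median was -0.04, and 8 of 20 neighbours were lower on all arrays, as many as around Psmb2. Around Psmc5 on chromosome 11 the median was 0.02, with 3 of 20. In all, 20 of 30 proteasome genes were below the median of their neighbours. The same share over all genes was not taken, and the median of the set was itself -0.08 against 0.003 over all genes.

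**Figure D5:**
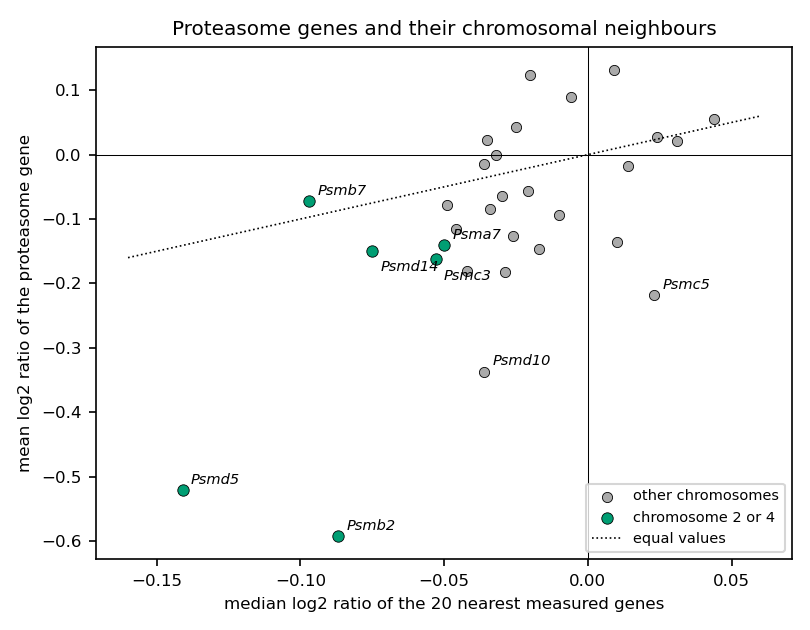
Mean log2 ratio of each proteasome gene (vertical) against the median of the mean log2 ratios of its 20 nearest measured genes (horizontal), with green points for genes on chromosomes 2 and 4 and a dotted line at equal values. The green points lie left of zero, as do most points of the other chromosomes, and Psmb2, Psmd5 and Psmd10 lie far below the line.

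Other genes of the pathway were read from lists of their own, and none passed limma at an adjusted p of 0.05 (0 in each list). Their counts stand beside 28.1% of all genes lower and 31.9% higher in both pairs. Among genes of core assembly and proteasome regulation, 6 of 11 were lower and 2 higher in both pairs, with a median of -0.10. Pomp, the chaperone that completes the core, gave -0.24, -0.20, -0.29 and -0.13, with a mean of -0.22 ± 0.01 (limma adjusted p = 0.491). Adrm1, the ubiquitin receptor at the tip of the cap, gave -0.51, -0.29, -0.20 and -0.23, with a mean of -0.31 ± 0.13 (limma adjusted p = 0.495). Both were lower on all arrays. Ecpas, a proteasome adaptor, had a mean of -0.17 with arrays on both sides of zero.

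Genes that control proteasome expression had a median of -0.07 over 10 genes, 3 lower and 1 higher in both pairs. Nfe2l1 gave -0.37, -0.42, -0.43 and -0.06, with a mean of -0.32 ± 0.10 (limma adjusted p = 0.488), lower on all arrays. Its partner Mafk had a mean of -0.23 (limma adjusted p = 0.606), and the large Maf protein Maf had 0.64 (limma adjusted p = 0.465). These are RNA levels, and Nfe2l1 is known to be controlled mainly by cleavage of its protein.

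Upstream of the proteasome, ubiquitin genes and ubiquitin-activating and conjugating enzymes split evenly, with 5 of 14 higher and 5 lower in both pairs and a median of 0.01. Ube2s, which extends ubiquitin chains for the anaphase-promoting complex, gave -0.20, -0.64, -0.96 and -0.51, with a mean of -0.58 ± 0.22 (limma adjusted p = 0.479). Its partner Ube2c, which starts those chains, had a mean of 0.25 (limma adjusted p = 0.623), with 0.45 in pair 1 and 0.05 in pair 2, and Ube2k one of -0.20. Shuttle and unfolding factors had a median of -0.02 over 10 genes, with 4 lower and 2 higher in both pairs. Among them Rad23b, which carries ubiquitinated proteins to the cap, had a mean of -0.39, Ubqln2 one of 0.35 and Nploc4 one of -0.26 (limma adjusted p = 0.516, 0.512 and 0.643). Subunits of the cell cycle ligases had a median of -0.02 over 19 genes, with 6 lower and 3 higher in both pairs. Cks1b, which helps the ligase component Skp2 bind the inhibitor Cdkn1b, gave 0.44, 0.65, 0.49 and 0.63, with a mean of 0.55 ± 0.01 (limma adjusted p = 0.438), higher on all arrays. Anapc1 and Fbxw7 had means of -0.31 and -0.26 (limma adjusted p = 0.636 and 0.531).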

How the data were processed

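Mammary tumours of 4 mice were compared on 4 2-colour arrays. Per the file headers, each deposited array file gives spot intensities, processed signals and a log10 ratio (red over green). The authors' deposited value table holds a natural log of the same ratio, as found by setting it against the scanner ratios (slopes 2.27 to 2.29, expected 2.30). Its centring is not given here, its column medians were 0.0209, 0.0007, 0.0209 and 0.0078, and it served as an alternative. The submitters' processing notes name Agilent Feature Extraction 7.2 and the file headers 7.5.1.

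Intensities were background-corrected (normexp, offset 50) and normalized within arrays by loess, fitted without control spots. Flagged spots took part in that fit and were left out afterwards. Probes well above background in 1 channel or more on at least 2 arrays were kept, 37177 of 41174, and a gene was read from its brightest probe. Ratios of swapped arrays were turned to Cdc25a;neu over neu and averaged within a pair, which the labels number, so the pair is built into each ratio. The 2 pair ratios were tested against 0 with limma 3.58.1 (R 4.3.3), two-sided, with Benjamini-Hochberg adjustment at 0.05 over 32662 genes. Nothing names separate batches of mice beyond the pairs, and each array lay on its own slide. The number of pairs limits the precision. Signals in single tumours are loess-normalized values of 1 channel averaged over both dyes, after quantile normalization of the mean log2 intensities between arrays.

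All 4 values are given for the catalytic subunits, chaperones and activators, for the 3 genes of each other role with the largest mean in size and for the 2 whose pairs differ most, and up to 3 genes of each other list are named. Members and lists were chosen with earlier results of these data known. Annotation of GRCm38.p6 gave names, chromosomes, gene order and promoters, as the files name no build. Alternatives were other signals and normalizations, filters, probe rules and models, and leaving out arrays or pairs. The scripts were tested on simulated data.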

Additional observations from a re-analysis of the deposited data

How the results depend on the processing

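Only 2 mice per genotype and a dye effect of similar size limit what can be said of single genes. Psmb2, Psmd5, Psmd10 and Psmc5 kept their direction in all 17 alternatives run, with log2 ratios of -0.76 to -0.52, -0.69 to -0.35, -0.42 to -0.26 and -0.27 to -0.17. Psma4, Psma7, Psmc3, Psmd11, Psmd14 and Psme4 kept theirs too. Several of the 17, such as other filters and models, left these log2 ratios as they were and are no check of direction. The median over the proteasome genes was -0.035 with median centring, and -0.117 (without the Cy3 array of pair 1) to -0.036 (pair 1 alone) when arrays or a pair were left out. The core minus cap gap was 0.03 from scanner processed signals, 0.002 from the authors' table, 0.045 with updated symbols, 0.086 with chaperones in the cap and -0.012 as means, and ran from -0.046 to 0.059 with arrays or a pair left out. Counts of genes higher in both pairs were 2 with median centring. Counts lower in both were 9 with median centring and 9 to 19 with an array left out. The shares of all genes under these settings were not taken. Limma called 999 genes with median centring, where its total degrees of freedom were estimated at 191 in place of 2.73, and 14 with arrays as units, against 0 otherwise (3154 at an unadjusted p of 0.05). Fitting the channels separately, with no replicate block for the mouse pair, called 0 (1038 unadjusted). Directions turned for Psmb5 and Psme3 with processed signals (0.01 and 0.003) and median centring (0.034 and 0.057), and for Psma2 in the authors' table (-0.043). With arrays or a pair left out, 15 of the 30 genes took both signs: Psma5, Psma6, Psmc1, Psmd3, Psmd8 and Psmd12 (-0.324 to 0.19 over the 6), Psma3 (-0.202 to 0.259), Psmb1 (-0.198 to 0.01), Psmb5 (-0.173 to 0.143), Psmb6 (-0.273 to 0.02), Psmb7 (-0.169 to 0.026), Psmc6 (-0.066 to 0.327), Psmd7 (-0.387 to 0.096), Psmd9 (-0.381 to 0.018) and Psme3 (-0.123 to 0.121). The share of all genes that took both signs was not taken, and the causes were not tested.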
